A study of Sesbania grandiflora with 21 samples.

Results

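The genes described here are 92 of the 97500 assembled genes of Sesbania grandiflora leaves. In each of them the group average was raised under both combined treatments, DS+Y-L and DS+Y-S, and was not raised under any of the 4 single treatments. They were chosen on measured values. Counts were turned into CPM, a gene's count scaled to the total of its library, and d was the group mean of log2(CPM + 1) minus the ck mean. A member had a mean of at least 5 CPM in 1 of the combined groups, d of at least 0.7 in both, and d under 0.3 in each of the 4 single-treatment groups. The rule used 20 of the 21 libraries and left out DS+Y-S replicate 1. These conditions are therefore no findings, and the values behind them are given as a description.

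Sesbania grandiflora is a leguminous tree. The 21 leaf libraries, made from messenger RNA captured on oligo(dT) beads, fell by their titles into 7 groups of 3, namely ck, the single treatments DS-L and DS-S, the single treatments Y-L and Y-S, and the combined groups. The series' design text counts 4 groups of 3 instead, and how those map onto the 7 titles is not stated in the sources used here. The series title speaks of drought and salt in combination, but these sources do not give which letters stand for which stress, what L and S stand for, the dose, the plant age or whether libraries came from separate plants. A p-value below therefore covers the spread among libraries alone, and that spread may be technical. The identifiers come without gene names, so functions could not be assigned and the leaf label could not be checked against marker genes. As background, drought and salt both restrict the water a plant can take up, and salt adds an excess of sodium and chloride ions. Both call on the hormone abscisic acid, which closes stomata and switches on genes for protective proteins and solutes. Plants under both stresses together can show transcript changes that neither stress gives alone, which is the pattern the rule looks for in group averages.

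The floor of 5 CPM was met by 16418 genes. Of these, 3127 had d of at least 0.7 in DS+Y-L, 2448 had it in DS+Y-S, and 1781 had it in both. The condition on the single treatments then removed 1689 genes and left the 92. The thresholds cut through a continuous range. The smaller of a member's d values in the combined groups was 0.7003 just inside the rule and 0.69995 just outside. The largest single-treatment d was 0.29 just inside and 0.302 just outside. The higher combined mean was 5.68 CPM just inside and 4.99 CPM just outside, where 45 genes failed on the floor alone.

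Total counts per library ran from 16431940 to 20138058. DS+Y-S replicate 1 stood apart, with counts on 36755 genes against 47279 to 61454 in the other libraries. Scaling by TMM (trimmed mean of M-values) in place of total counts moved single libraries by -0.33 to 0.31 on the log2 scale, with DS+Y-S replicate 1 at the lower end. Under that scaling 119 genes passed the rule, 81 of the 92 among them.

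Within the combined groups the members' levels differed between libraries. A choice on means of 2 or 3 libraries takes in genes with single high libraries, so the values by library are a description of the genes chosen. As a sum the members were high in 3 libraries, DS+Y-L replicates 1 and 2 and DS+Y-S replicate 3. Together they took 1.10% of all counts in DS+Y-L replicate 1, 0.907% in replicate 2 and 1.01% in DS+Y-S replicate 3. In DS+Y-L replicate 3 they took 0.225%, in DS+Y-S replicate 2 0.276% and in DS+Y-S replicate 1 0.145%. The 15 ck and single-treatment libraries ran from 0.142% to 0.285%, the highest in ck replicate 3. The other 3 combined libraries thus lay within the range of libraries that received no combined treatment. In these bulk samples a change in the number of cells of a type and a change in RNA per cell cannot be told apart.

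**Figure D1:**
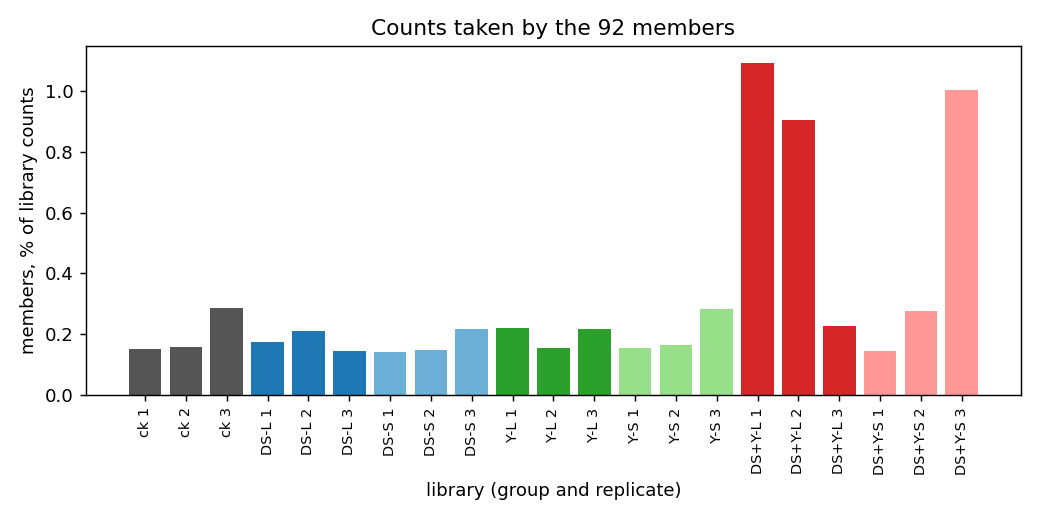
Bars give the percentage of each library's counts that fell on the 92 members, for all 21 libraries coloured by group. Only DS+Y-L replicates 1 and 2 and DS+Y-S replicate 3 reach 0.907% or more, and every other library lies at or below 0.285%.

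The same split held gene by gene. The median member stood at 47.5 CPM in DS+Y-L replicate 1, at 28.2 CPM in replicate 2 and at 3.20 CPM in replicate 3. In DS+Y-S it stood at 23.2 CPM in replicate 3, at 6.63 CPM in replicate 2 and at 1.63 CPM in replicate 1. In ck it stood at 1.52, 2.05 and 6.41 CPM in replicates 1, 2 and 3. DS+Y-L replicate 3 was the lowest library of its group in 86 of the 92 members, and it lay below the ck mean in 46. The shares over the genes at the floor were not counted for these measures. It was the highest library of its group in 1 member, against 47.2% of the genes at the floor. The median difference on the log2(CPM + 1) scale was 2.41 between DS+Y-L replicates 1 and 3 and 2.24 between replicates 2 and 3. DS+Y-S replicate 3 exceeded replicate 2 in 73 members (44.2% of the genes at the floor), with a median difference of 2.03 in members.

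Each combined library was also set against the ck libraries. In 87 members DS+Y-L replicate 1 exceeded all 3 ck libraries, against 35.0% of the genes at the floor. The count was 84 in DS+Y-L replicate 2 (36.8% of the genes at the floor) and 85 in DS+Y-S replicate 3 (30.5%). It was 21 in DS+Y-L replicate 3 (35.2%) and 36 in DS+Y-S replicate 2 (23.9%). All 5 combined libraries that the rule used lay above all 3 ck libraries in 9 of the 92 members, and 7.11% of the genes at the floor did so. They lay above all 15 ck and single-treatment libraries in 1 member, against 0.0548% of the genes at the floor. Since the rule chose genes on these averages, nothing is read from how the members' counts compare with these shares.

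**Figure D2:**
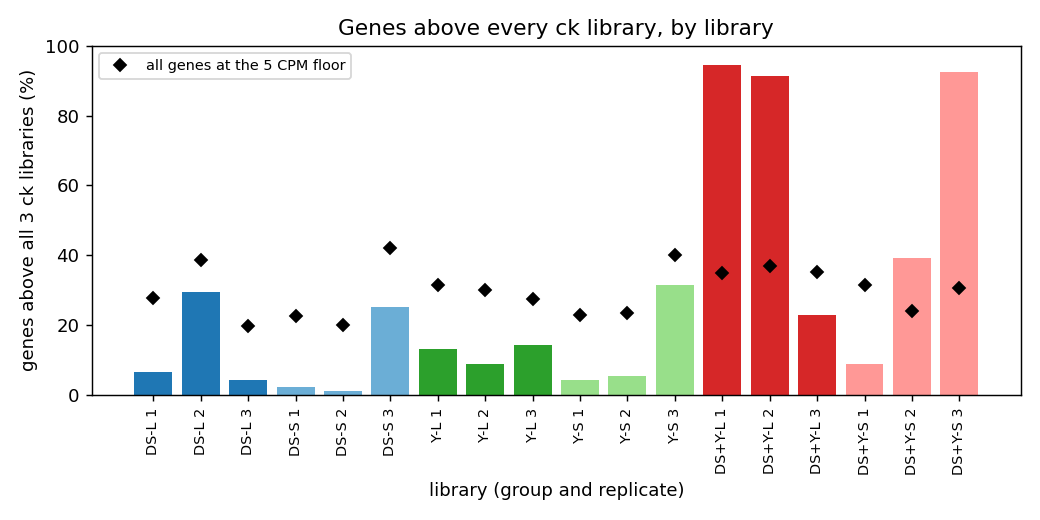
Bars give, for each of the 18 treated libraries, the percentage of the 92 members whose CPM lay above all 3 ck libraries, and diamonds give the same for all 16418 genes at the floor. Bars stand above 90% in DS+Y-L replicates 1 and 2 and DS+Y-S replicate 3, while DS+Y-L replicate 3 and DS+Y-S replicate 1 lie below their diamonds.

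DS+Y-S replicate 1 was the 1 library of the combined treatment that the rule did not use. In it 8 of the 92 members exceeded all 3 ck libraries, whereas 31.5% of the genes at the floor did so. With TMM scaling the count was 4, and without ck replicate 3 it was 21. The shares over the genes at the floor were not counted under these settings, so nothing is read from the change. The library lay below all 3 ck libraries in 35 members (27.7% of the genes at the floor), and it held 0 counts for 40 members (3.61%). Among the 67 members averaging 20 counts or more in ck, 8 exceeded all ck libraries (31.7% of such genes at the floor) and 19 were at 0 counts (2.23%). Most members therefore did not exceed ck in this library. It is a single library with counts on far fewer genes than the others, and the part that this plays was not tested.

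Members differed in which libraries carried them. A member was called high in a library when its log2(CPM + 1) exceeded that of all 15 ck and single-treatment libraries by at least 1, about 2-fold. By this measure 58 members were high in DS+Y-L replicate 1, 49 in replicate 2 and 0 in replicate 3. In DS+Y-S, 47 were high in replicate 3, 13 in replicate 2 and 0 in replicate 1. Over all genes at the floor these shares were 3.45%, 3.20% and 0.104% in DS+Y-L and 1.77%, 1.09% and 0.372% in DS+Y-S, in the same order. Of the 5 combined libraries of the rule, 76 members were high in 1 or more (6.26% of the genes at the floor), 59 in 2 or more (2.75%), 31 in 3 or more (0.585%), 1 in 4 (0.0244%) and 0 in all 5 (0%). The other 16 were high in none.

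The commonest arrangement, in 26 members, was high in DS+Y-L replicates 1 and 2 and DS+Y-S replicate 3. Their median levels there were 24.1, 37.8 and 17.1 CPM. In DS+Y-L replicate 3 the median of the same 26 was 1.67 CPM, and in DS+Y-S replicate 2 it was 1.38 CPM, close to the 1.504 CPM median of their ck means. A set of 13 was high in DS+Y-L replicates 1 and 2 only, at medians of 123 and 82.1 CPM against 3.99 CPM in replicate 3. The medians of these 13 in DS+Y-S were 16.6 CPM in replicate 2 and 38.9 CPM in replicate 3. The median of their ck means was 14.7 CPM. Another set of 12 was high in DS+Y-S replicate 3 only, at a median of 22.03 CPM against 2.21 CPM in replicate 2. Its medians in the 3 DS+Y-L libraries were 3.61 to 5.95 CPM, with single members from 0.328 to 352 CPM.

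A smaller set of 7 members joined DS+Y-L replicate 1 with DS+Y-S replicate 2. Their median was 50.4 CPM in the first and 17.1 CPM in the second. It was 1.38 CPM in DS+Y-L replicate 2 and 0.278 CPM in DS+Y-S replicate 3, the libraries in which most other members were high. A further 4 members were high in DS+Y-L replicates 1 and 2 and DS+Y-S replicate 2, with medians of 48.2, 9.35 and 24.1 CPM. In both of these sets DS+Y-S replicate 2 and not replicate 3 was the high library of its group, so the raised averages in DS+Y-S came from different libraries in different members. These sets were formed after the values were seen and carry no test.

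**Figure D3:**
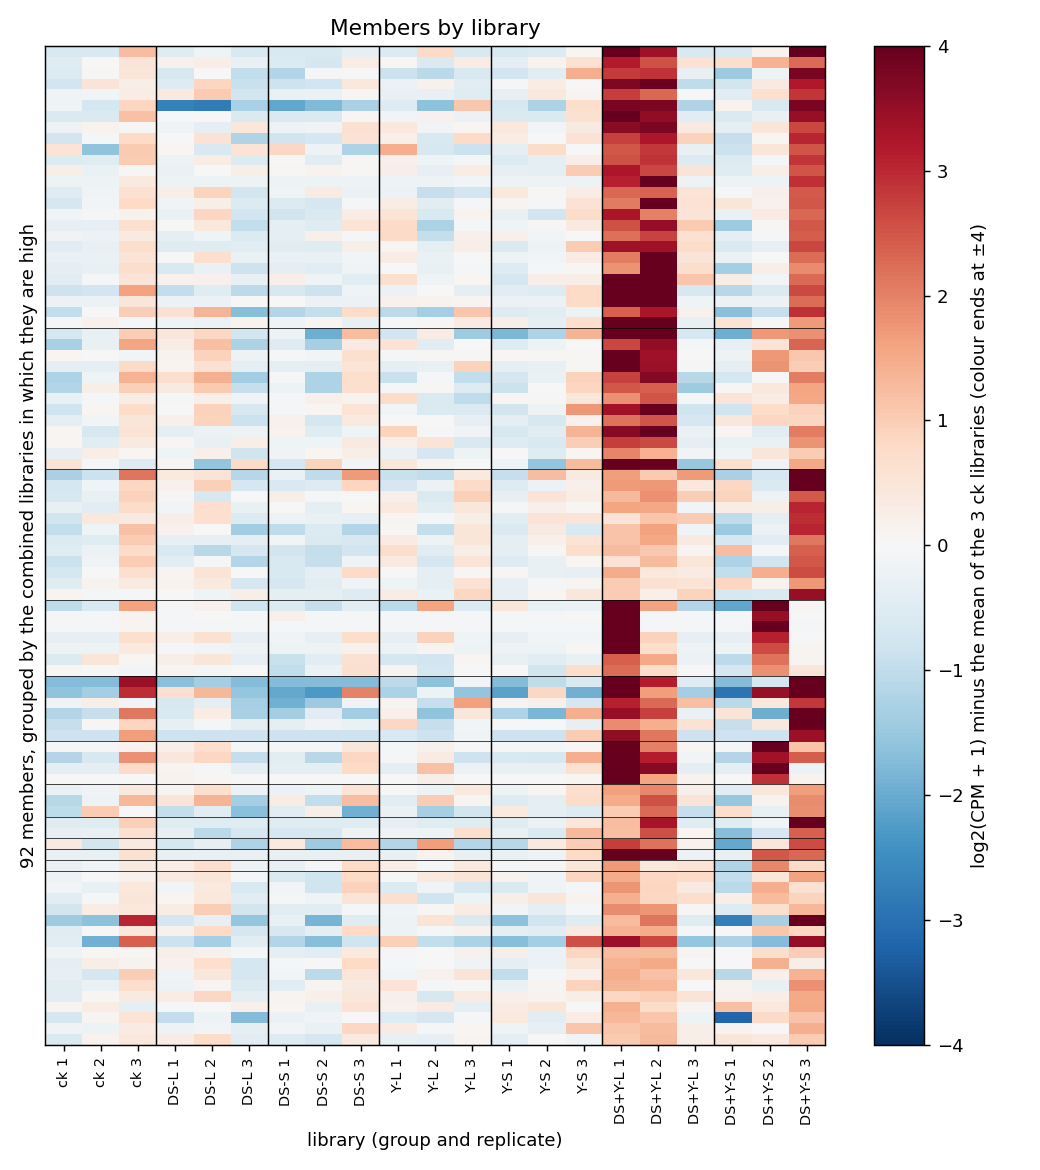
Each row is 1 of the 92 members and each column 1 of the 21 libraries, coloured by log2(CPM + 1) minus the mean of the 3 ck libraries, with rows grouped by the combined libraries in which the member is high. Red is concentrated in DS+Y-L replicates 1 and 2 and DS+Y-S replicate 3, a block of 7 rows is red in DS+Y-L replicate 1 and DS+Y-S replicate 2, and DS+Y-L replicate 3 is pale.

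The clearest separation was in TRINITY_DN1000_c2_g1, a gene of moderate level. It stood at 68.9, 44.4 and 41.4 CPM in DS+Y-L and at 61.6 and 46.6 CPM in DS+Y-S replicates 2 and 3. It stood at 18.2, 24.05 and 34.9 CPM in ck, and the highest of the 12 single-treatment libraries was Y-L replicate 1 at 39.01 CPM. Its 5 combined libraries lay above all 15 others, and it was the 1 member of which this held. DS+Y-S replicate 1, which the rule did not use, stood at 30.05 CPM, inside the ck range. The means were 25.7 ± 8.46 CPM in ck, 51.6 ± 15.1 CPM under DS+Y-L (SD over n = 3 each) and 54.1 ± 10.6 CPM under DS+Y-S (SD, n = 2). The fitted log2 difference of the combined groups from ck was 1.18 (SE 0.31), a contrast that chose the gene. Between the combined groups the difference, L minus S, was -0.04 (SE 0.37, edgeR adjusted p = 0.996), and its sign changed with the libraries included.

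TRINITY_DN95653_c0_g1 was next by this separation and far lower in level. It stood at 17.2, 10.8 and 2.02 CPM in DS+Y-L and at 4.36 and 8.67 CPM in DS+Y-S replicates 2 and 3. The ck libraries stood at 0.434, 0.999 and 1.90 CPM. The highest single-treatment library, Y-S replicate 3 at 2.10 CPM, exceeded DS+Y-L replicate 3, so the groups touched at this 1 point. DS+Y-S replicate 1 stood at 2.27 CPM, above the ck libraries. The means were 1.11 ± 0.74 CPM in ck and 10.01 ± 7.64 CPM under DS+Y-L (SD over n = 3 each), and 6.52 ± 3.05 CPM in DS+Y-S (SD, n = 2). The fitted log2 difference of the combined groups from ck, again the contrast that chose the gene, was 3.06 (SE 0.79), and that of DS+Y-L from DS+Y-S was 0.67 (SE 0.86, edgeR adjusted p = 0.936).

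The members that the rule ranked highest were less even. The member with the largest smaller d, 2.79, stood at 152, 15.05 and 0 CPM in DS+Y-L and at 0.689 and 65.9 CPM in DS+Y-S replicates 2 and 3. It stood at 0, 0 and 2.66 CPM in ck, so that DS+Y-L replicate 3 and DS+Y-S replicate 2 lay inside the ck range. The member ranked second stood at 139, 28.03 and 1.31 CPM in DS+Y-L and at 1.03 and 351 CPM in DS+Y-S, while ck replicate 3 held 35.5 CPM and the other 2 ck libraries 0. The member of rank 3 stood at 741, 11.8 and 0.874 CPM in DS+Y-L and at 130 and 3.33 CPM in DS+Y-S. In each of these 3 members DS+Y-L replicate 3 lay inside the range of ck or below it, and all 3 were at 0 counts in DS+Y-S replicate 1.

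The members with the highest combined means were uneven within at least 1 combined group as well. The member with the highest DS+Y-S mean stood at 1970 CPM in DS+Y-S replicate 3 and at 115 CPM in replicate 2, below its ck libraries at 166 to 188 CPM. In DS+Y-L it stood at 352, 198 and 325 CPM, all above ck, and its highest single-treatment library was Y-L replicate 3 at 307 CPM. The member with the highest DS+Y-L mean stood at 820, 747 and 91.5 CPM in DS+Y-L and at 99.2 and 421 CPM in DS+Y-S. Its ck libraries stood at 127, 88.3 and 154 CPM, and its highest single-treatment library was Y-S replicate 3 at 237 CPM. The most even member over the 5 combined libraries stood at 149, 147 and 65.1 CPM in DS+Y-L and at 101 and 120 CPM in DS+Y-S. Its ck libraries stood at 54.8, 64.4 and 63.6 CPM, and its highest single-treatment library was Y-S replicate 3 at 112 CPM. Across all 92, the highest of the 5 combined libraries held a median of 44.4% of their summed CPM, from 25.6% to 89.01%, against a median of 29.2% over the genes at the floor.

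**Figure D4:**
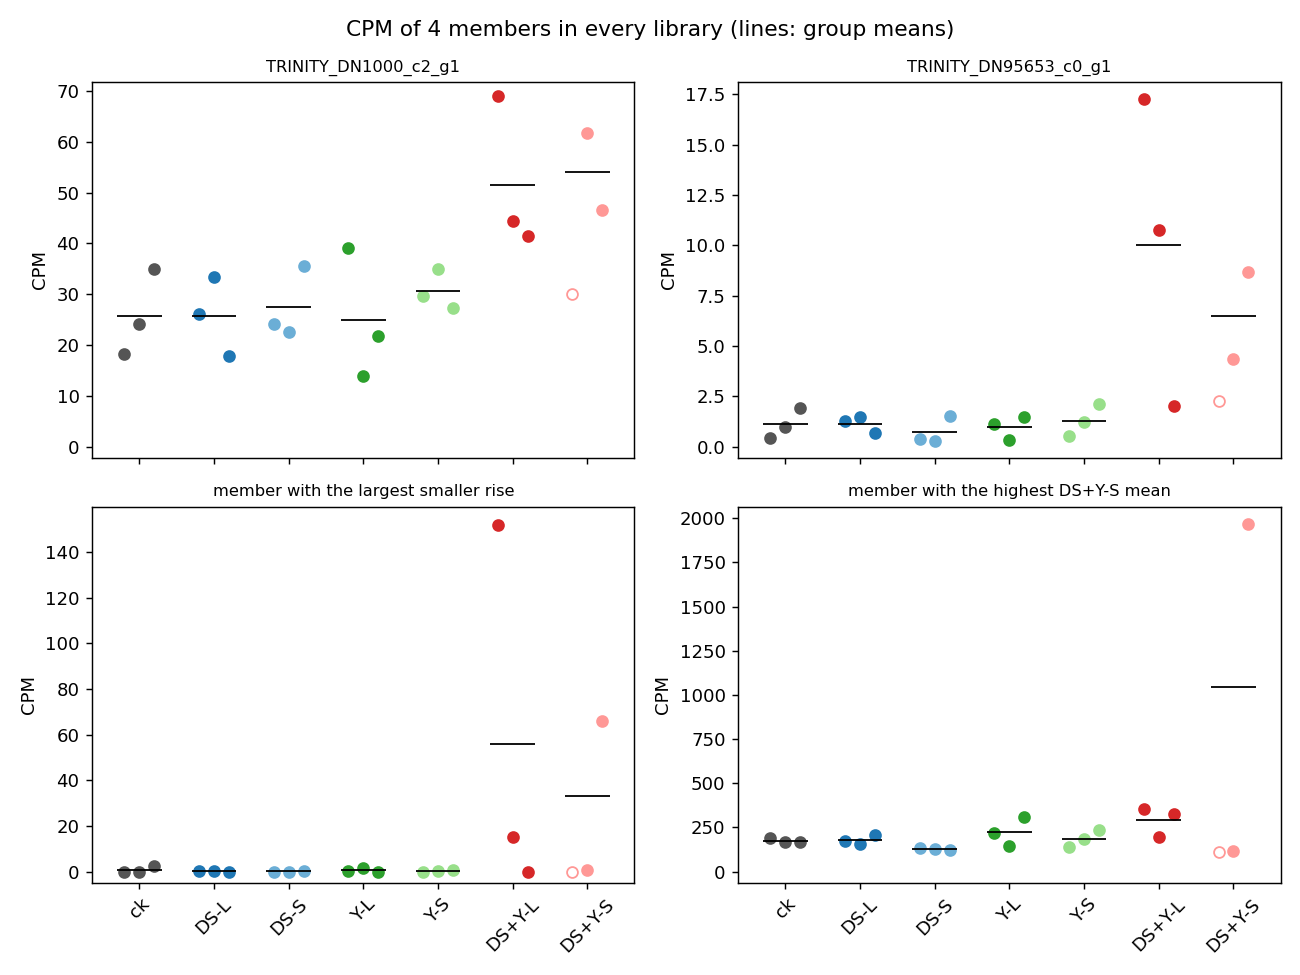
Points give the CPM of 4 members in each library, lines the group means, and the open point is DS+Y-S replicate 1, which entered neither the rule nor the mean. TRINITY_DN1000_c2_g1 is raised in all 5 combined libraries of the rule. In the lower panels single libraries at 152, 65.9 and 1970 CPM stand far above the others of their groups.

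Members ranged widely in their level in ck, and they are described here in 3 ranges chosen after the values were seen. In 25 members the ck mean was under 1 CPM, and their median d was 2.42 in DS+Y-L and 1.54 in DS+Y-S. In 41 members it was 1 to under 20 CPM, with median d of 1.48 and 1.13. In 26 it was 20 CPM or more, with median d of 1.17 and 0.94. A member low in ck could reach the floor of 5 CPM only through a combined group, so a large d at low ck levels is built into the choice. The 5 combined libraries exceeded all ck libraries in 3, 2 and 4 members of these classes. The shares over the genes at the floor were not counted by class, so the classes are not compared. A total of 7 members were at 0 counts in 10 or more of the 15 ck and single-treatment libraries, and 65 had at least 1 count in all 15.

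Within the single treatments the rule set an upper limit on d but no lower one. Median d was -0.06 in DS-L and -0.19 in DS-S, and it was -0.05 in Y-L and -0.01 in Y-S. Members with d below 0 numbered 51 in DS-L (49.8% of the genes at the floor) and 67 in DS-S (40.1%). They numbered 53 in Y-L (50.7%) and 49 in Y-S (39.0%). In 19 members d was below 0 in all 4 single treatments, as in 21.6% of the genes at the floor. A d below -0.7 in at least 1 single treatment occurred in 15 members, against 17.4% of the genes at the floor. The upper limit removes genes with higher d, and the ck mean enters every d of the rule. Nothing is therefore read from how these counts compare with the shares.

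The ck libraries themselves were uneven for these genes. The highest ck library was replicate 3 in 74 of the 92 members, against 37.6% of the genes at the floor. In the single treatments the highest library was most often DS-L replicate 2 (64 members, 59.4% of the genes at the floor), DS-S replicate 3 (64, 52.0%), Y-L replicate 3 (38, 30.1%) and Y-S replicate 3 (66, 45.4%). The rule used the means of these groups, and nothing is read from how the counts compare with the shares. Deviations from group means over the 15 ck and single-treatment libraries had a median correlation of 0.434 between pairs of the 59 members with enough counts, and of 0.0801 between pairs of 16178 genes at the floor. All pairs share the same 15 libraries, and the correlation is a description.

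Contrasts that the rule did not set compared the suffixes and the single treatments. The rule did use the group means in them, and a gene raised under only 1 suffix of the combined treatment could not be a member. The values between the combined groups are therefore a description. edgeR's quasi-likelihood test on 41105 genes, all 92 members among them, called no member at an adjusted p under 0.05 in any of these 5 contrasts, where 0% of all genes were called in each. Between the combined groups there were 5 members at an unadjusted p under 0.05, 4 higher and 1 lower in DS+Y-L, against 6.33% of all genes. The median log2 difference of the members was 0.33, with 64 of 92 higher in DS+Y-L, and that of all genes was -0.01. This value rested on single libraries. It was -0.22, with 34 of 92 higher, without DS+Y-L replicate 1, and 0.10, with 52 higher, without DS+Y-L replicate 2. It was 0.78, with 72 higher, without DS+Y-L replicate 3. It was 0.02, with 46 higher, without DS+Y-S replicate 2 and 1.86, with 82 higher, without DS+Y-S replicate 3. With the replicate number as a block it was 0.54, and with all 21 libraries 0.83. DESeq2 called 1 member in this contrast (0.465% of all genes it tested), and edgeR called 2 once DS+Y-L replicate 3 was left out (0.192%).

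Between the single treatments the rule's upper limit on d bounded how high members could stand, but not how low. The sizes are therefore not compared with those above. DS-L against DS-S had 0 members at the unadjusted threshold (6.70% of all genes), a median difference of 0.18 and 1 call in DESeq2 (0.330%). Y-L against Y-S had 0 (4.43%), a median of 0.09 and 0 calls in DESeq2 (0.0318%). DS-L against Y-L had 3, all lower in DS-L (12.0%), a median of -0.25 and 1 call in DESeq2 (1.52%). DS-S against Y-S had 1, lower in DS-S (1.52%), a median of -0.28 and 1 call in DESeq2 (0.0140%). The medians also moved with single libraries. That of DS-L against DS-S was 0.51 without DS-S replicate 3, that of Y-L against Y-S was 0.55 without Y-S replicate 3 and -0.07 without Y-S replicate 1, and that of DS-S against Y-S was -0.73 without DS-S replicate 3 and 0.08 without Y-S replicate 3.

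Against ck, the contrasts that chose the members, even the selected genes seldom passed the adjusted threshold in edgeR's main fit. DESeq2, and edgeR without a filter on low counts, called more members in each of these contrasts. For DS+Y-L against ck edgeR called 1 member, where 0.109% of all genes were called, and 68 members had an unadjusted p under 0.05 (20.7% of all genes). The called member stood at 111, 217 and 7.65 CPM in DS+Y-L and at 1.95, 2.79 and 4.78 CPM in ck, without overlap. For DS+Y-S against ck edgeR called 0 members (0.00243% of all genes) with 54 at the unadjusted threshold (9.05%), and for both suffixes averaged it called 0 (0% of all genes) with 75 (17.9%). DESeq2 called 39, 4 and 37 of the 89 members it tested in these contrasts, all higher, where it called 9.79%, 1.47% and 6.68% of all genes it tested. The call in DS+Y-L against ck was lost without any 1 of the ck libraries, of DS+Y-L replicates 1 and 2 or of 7 single-treatment libraries. The count of members called was 50 without DS+Y-L replicate 3, where 7.64% of all genes were called. It was 5 and 2 without DS+Y-S replicates 2 and 3 (0.608% and 0.299% of all genes) and 4 without Y-S replicate 3 (1.14%), so the calls over all genes rose in these fits too. edgeR's estimate of the spread had a median dispersion of 0.615 in members and 0.282 over all genes. It came from the same libraries as the choice, which takes in genes with single high libraries. The members were not matched to the other genes for level, so nothing is read from this difference.

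Which genes passed the rule depended on single libraries. Without ck replicate 3 the rule took 39 genes, 24 of the 92 among them, and without DS+Y-S replicate 3 it took 40, with 26 of the 92. Without DS+Y-S replicate 2 it took 178, with 81 of the 92. Leaving out any other of the 20 libraries gave 62 to 129 genes, with 59 to 92 of the members. With DS+Y-S replicate 1 added the rule took 52 genes, 48 of the 92 among them. Group medians in place of means, tried after the data were seen, took 72 genes and 40 of the 92.

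**Figure D5:**
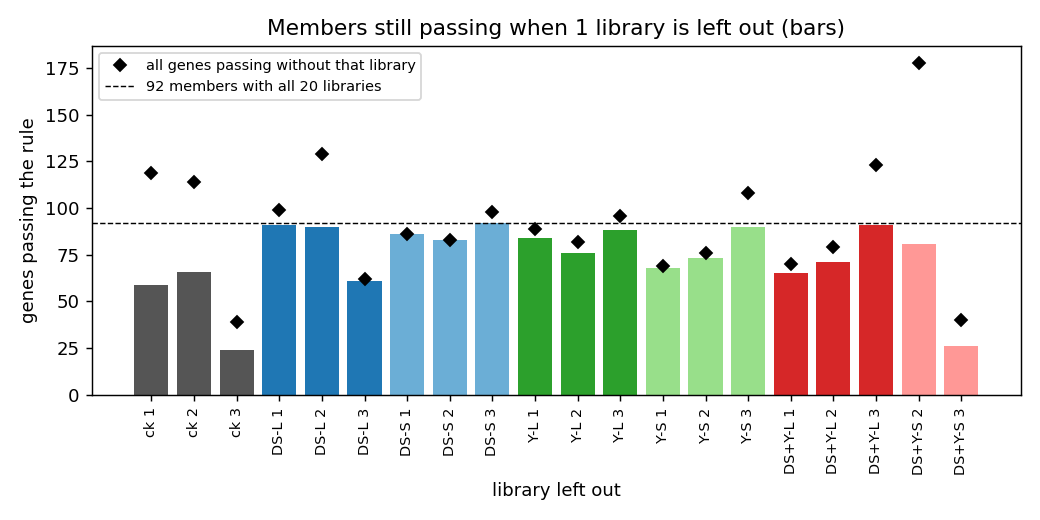
Bars give how many of the 92 members still passed the rule when 1 library was left out, and diamonds give all genes that passed. The lowest bars are 24 without ck replicate 3 and 26 without DS+Y-S replicate 3, and the highest diamond is 178 without DS+Y-S replicate 2.

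The 1689 genes that met the combined conditions but also had d of 0.3 or more in a single treatment serve as the nearest comparison. In 694 of them, or 41.1%, all 5 combined libraries exceeded all 3 ck libraries, against 9 of the 92 members. The median range of log2(CPM + 1) within DS+Y-L was 1.67 in those genes and 2.77 in members, and within DS+Y-S it was 1.16 and 2.22. The difference was not tested, because both sets were chosen on these values.

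Length and assembly cluster were measures that the rule did not use. The length implied by count and FPKM had a median of 1144 bases in members and 1256 bases over the genes at the floor, with quartiles at 542 and 1812 bases in members and at 783 and 1865 bases over those genes. Implied lengths of members ran from 37.7 to 3134 bases. TRINITY_DN95653_c0_g1 was short at 115 bases, and TRINITY_DN1000_c2_g1 had 3133 bases. Each of the 92 carried a different cluster number in its identifier, and 45 were the only gene of their cluster. No cluster therefore held more than 1 member. The other clusters held 103 further genes, of which 54 reached a group mean of 1 CPM, and 9 of the 54, or 16.7%, had d of at least 0.7 in both combined groups, against 7.14% of all genes at that level. Genes of a cluster can share reads in a de novo assembly, so these levels are not independent of the members' own.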

How the data were processed

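The authors deposited counts and FPKM values per gene, per the file headers, for 21 leaf libraries. Counts are whole numbers, and identifiers have the form that the Trinity assembler writes. The sources used here do not give the assembler version, the counting program or the filters. FPKM served only for implied lengths, taken as the median over libraries at 1 FPKM or more. No column belonged to another sample (0 columns).

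Members were found with Python 3.11.15 from CPM, each count over its library total, with a pseudocount of 1. The members, the rule and the tests were chosen with earlier results of these data known. The 2 identifiers printed have the largest difference between the lowest of 5 combined and the highest of 15 other libraries, and other members are described by rank. The test of counts was edgeR 4.0.16 (R 4.3.3) on 20 libraries with 7 group means, after filterByExpr and TMM scaling, by quasi-likelihood with Benjamini-Hochberg adjustment over 41105 genes. DS+Y-S replicate 1 was left out as in the rule. Alternatives were DESeq2 1.42.0, its size factors, no filter, a replicate block, all 21 libraries, a robust spread and leaving out each library. Fits that leave 1 library in DS+Y-S assume that it varies like other groups.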

Additional observations from a re-analysis of the deposited data

How the results depend on the processing

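The number of genes passing the rule was 92, stayed within 1.5 times under other pseudocounts, floors and TMM scaling, and ran from 39 to 178 when 1 library was left out. The genes were not the same ones throughout: a pseudocount of 5 took 95 genes, of which 54 were among the 92, and a pseudocount of 0.5 took 89, of which 80 were. The number was 52 with all 21 libraries, and 9 when every combined library had also to exceed every ck library, a condition added after the data were seen. Members above every ck library in DS+Y-S replicate 1 numbered 8, 4 with TMM scaling, and 8 to 21 when 1 ck library was left out. The shares over the genes at the floor were not counted under these other settings. Without a low-count filter edgeR called 18 members for DS+Y-L against DS+Y-S (1.29% of the 92756 genes tested) and 2 for Y-L against Y-S (0.546%). It called 8 for DS-L against Y-L (2.25%) and 6 for DS-S against Y-S (0.404%). It called 67 members when DS+Y-L was set against ck (5.65%), 59 for DS+Y-S against ck (2.27%) and 77 for both suffixes averaged (4.78%). DESeq2 called 1, 0, 1 and 1 in the first 4 of these, 1 for DS-L against DS-S, and 39, 4 and 37 in the last 3. The causes were not tested. Leaving out 1 library gave 0 to 2 members for DS+Y-L against DS+Y-S, 0 to 50 for DS+Y-L against ck, 0 to 1 for DS+Y-S against ck and 0 to 26 for both averaged. For DS+Y-L against ck omitting DS+Y-L replicate 3 gave 50, omitting DS+Y-S replicates 2 and 3 in turn gave 5 and 2, and omitting Y-S replicate 3 gave 4. For both averaged, omitting DS+Y-L replicate 3 gave 26. Over all genes the calls for both averaged ran from 0 to 1064 when 1 library was left out. The upper end for DS+Y-S against ck came from a fit that left 1 library in DS+Y-S, so nothing is read from it. For the combined groups against each other, the 2 came from omitting DS+Y-L replicate 3. The count was 0 in all such fits for the other 4 contrasts. Over all genes the calls ran from 0 to 45 in the fits as reported, from 375 to 5244 without the filter, from 13 to 3613 in DESeq2, from 0 to 26 with all 21 libraries, and from 0 to 3139 when 1 library was left out.

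The replicate number as a block gave 0 members in DS+Y-L against ck in place of 1 and changed no other count of members. The numbers share no stated origin. Deviations were correlated above 0.1 in 19 of 57 same-numbered pairs of libraries and in 39 of 114 differently numbered pairs. The closest library carried the same number for 4 of 20 libraries. The log2 difference of TRINITY_DN1000_c2_g1 between DS+Y-L and DS+Y-S, reported as -0.04, was 0.24 with all 21 libraries and ran from -0.49 to 0.17 with 1 left out. That of TRINITY_DN95653_c0_g1 ran from -0.16 to 1.30. A member at 1 CPM rests on about 16 to 20 counts, and 25 members had a ck mean below that level.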
